A study of Mus musculus with 8 samples.

Results

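YAP (encoded by Yap1), its paralog TAZ (Wwtr1), the 4 TEAD transcription factors and 4 target genes widely used to read out YAP and TAZ were followed across 4 mouse mammary carcinoma lines. These 10 of the 53379 genes counted were picked by symbol for their place in the pathway, with earlier results of these data known, and all 10 passed the filter on low counts. YAP and TAZ are transcriptional coactivators with no DNA-binding domain of their own. The Hippo kinases MST and LATS phosphorylate them and keep them in the cytoplasm; when the kinases are quiet they enter the nucleus and bind TEADs, which sit on DNA. Cell density, attachment and polarity act on this switch, and TAZ is known for a role in breast cancer cells of mesenchymal type. As control of YAP and TAZ acts largely on the proteins, transcript levels do not measure their activity.

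The genes are protein-coding, and positions are those of GRCm38 with their Ensembl identifiers. RNA was sequenced from cells grown attached in monolayer, 2 libraries per line, on a C57BL/6 background in each line. pB2 and pB3 came from tumours of MMTV-PyMT mice, in which a mouse mammary tumour virus promoter drives the polyoma middle T oncogene in mammary epithelium. Epcam hi and 687g came from tumours of MMTV-PyMT-Snail-IRES-YFP mice, a reporter model that carries the same oncogene. No treatment is labelled. Each group is 1 cell line, so a difference between lines cannot be told apart from one between their source tumours. The labels do not state whether the 2 libraries of a line were separate cultures, so each p-value is relative to a spread that may be technical.

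Total counts ran from 12442730 to 19149916 per library. On these unscaled totals, 3 counts corresponded to 0.157 to 0.241 CPM (a count divided by the total of its library, on a common scale). The levels below are CPM on scaled library totals, as described under processing. Replicates of a line correlated across genes with r of 0.976 (Epcam hi) to 0.993 (pB3). Between the Epcam hi libraries 13.4% of genes differed over 2-fold, against 2.96% to 6.32% in the other lines. For genes with a longest transcript over 5 kb, the median log2 difference of replicate 1 from replicate 2 was 0.305 in 687g, -0.263 in pB2, -0.105 in Epcam hi and 0.0319 in pB3. For genes under 2 kb it was -0.212, 0.0881, 0.18 and 0.00119 in the same lines. Of 9 epithelial markers 8, Epcam, Cdh1 and 5 keratins among them, passed 1 CPM in some library, Krt5 did not, and their summed level ran from 1483 CPM in a pB2 library to 9312 in an Epcam hi library. Single markers did not follow that sum: in pB2, Epcam, Cdh1 and Cldn7 had mean levels of 566, 155 and 115 CPM, above the 271, 51.4 and 49.4 CPM of pB3, and in 687g they were at 3.77, 1.32 and 0.615 CPM. Of 8 fibroblast markers, 5 never passed 1 CPM (highest 0.148), and the sum of all 8 was 60.4 to 81.2 CPM in pB2, 15.2 to 17.8 for pB3, 2.35 to 2.81 for Epcam hi and 15.8 to 21.2 in 687g. Of 10 leukocyte markers, 7 never passed 1 CPM (highest 0.383), with Cd68, Csf1r and Ly6g above it, and the sum was 22.1 to 49.0 CPM in Epcam hi against 0.815 to 3.74 elsewhere. Of 8 endothelial markers 7, and of 6 adipocyte markers 4, stayed under 1 CPM in every library. Cldn5, Dpt, Adipoq and Lep had no count. The endothelial marker above 1 CPM was Erg, at 4.89 and 7.37 CPM in pB2. The adipocyte markers above it were Fabp4 and Plin4, and the adipocyte sum was 12.8 to 18.5 CPM in 687g against at most 1.91 elsewhere. The part of these cell type markers in the results was not tested. In bulk RNA, fewer cells that hold a transcript and less of it per cell cannot be told apart. Behind a level, ± gives the SD of 2 libraries, and behind a log2 fold change the standard error. A difference was called at an adjusted p under 0.05.

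**Figure D1:**
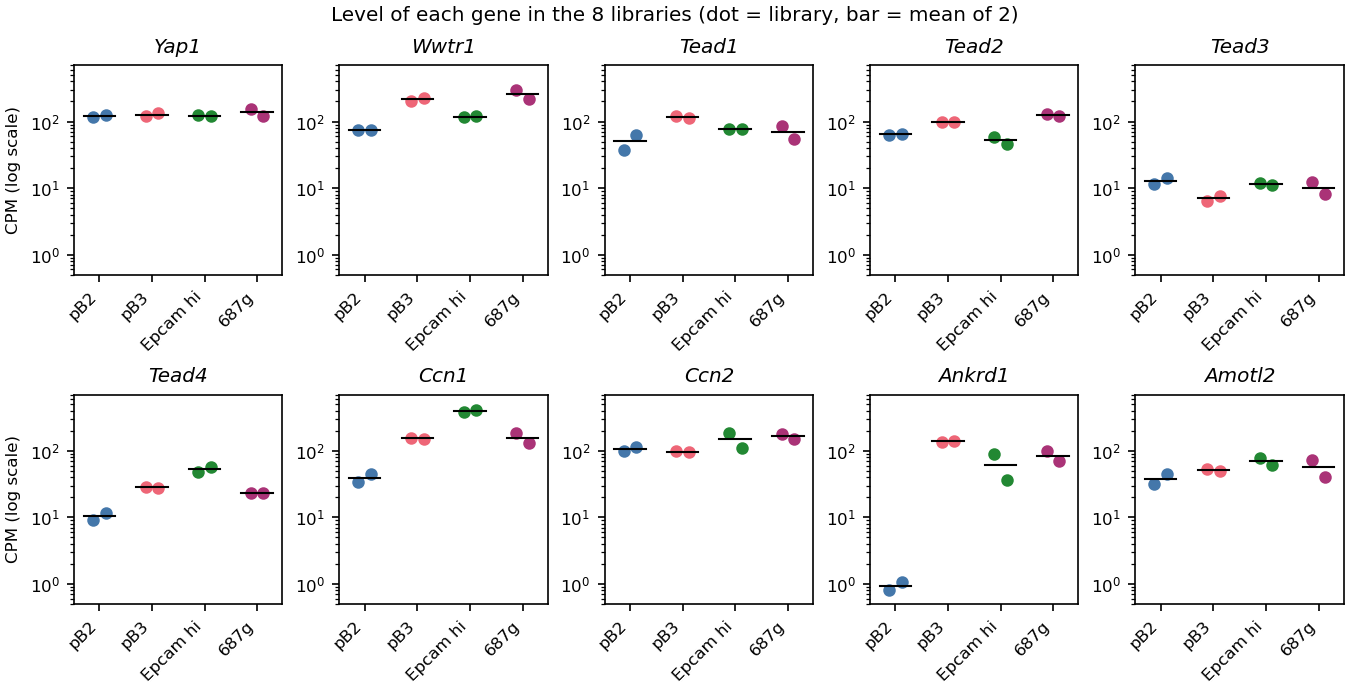
Level of each of the 10 genes in CPM (y axis, log scale) in the 4 lines (x axis), with a dot per library and a bar at the mean of 2. Yap1 lies between 117 and 155 CPM in every library, whereas Ankrd1 is near 1 CPM in pB2 and between 35.9 and 142 CPM elsewhere.

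The coactivator genes differed in how they varied. Yap1, on chromosome 9 (7931999 to 8004596, ENSMUSG00000053110, minus strand), had 117 and 126 CPM in pB2, 119 and 132 for pB3, 125 and 120 for Epcam hi, and 155 and 122 in 687g. The lines overlapped, and none of the 6 comparisons between lines was called. The largest log2 fold change of Yap1 was 0.18 ± 0.18, for 687g against pB2 (edgeR quasi-likelihood test, adjusted p = 0.411). With total counts as the scaling, its log2 fold change in pB3 against pB2 turned from 0.04 to -0.15, also not called.

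Wwtr1, on chromosome 3 (57455649 to 57575910, ENSMUSG00000027803, minus strand), had 73.9 and 73.5 CPM in pB2, 206 and 225 for pB3, 117 and 119 for Epcam hi, and 297 and 219 in 687g. No pB2 or Epcam hi library reached the level of any pB3 or 687g library. Within the MMTV-PyMT pair it was higher in pB3 than in pB2 by 1.55 ± 0.19 on the log2 scale, or 2.92-fold (edgeR adjusted p = 1.19e-05). Within the reporter pair it was higher in 687g than in Epcam hi by 1.13 ± 0.18, or 2.18-fold (edgeR adjusted p = 2.69e-04). Both calls held in all 16 alternatives tried. A test of the difference between the pairs did not call Wwtr1 (-0.42 ± 0.26, adjusted p = 0.227), although it did without 687g replicate 1 (-0.63, adjusted p = 0.0448; range over its 15 alternatives 0.0448 to 0.620). In the order of levels, 687g and pB3 were not told apart (adjusted p = 0.347), pB3 exceeded Epcam hi (adjusted p = 0.00256) and Epcam hi exceeded pB2 (adjusted p = 0.00699). The last of these calls ended without either pB2 library, with adjusted p of 0.00222 to 0.0749 over its 16 alternatives.

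Levels of different genes were compared after division by the length covered by all annotated exons of a gene, as CPM per kilobase. On that scale Wwtr1 was at 15.4 ± 0.0585 against 13.1 ± 0.689 for Yap1 in pB2, and at 54.0 ± 11.6 against 14.9 ± 2.51 in 687g. Wwtr1 thus made up 55.0% and 53.0% of the summed Yap1 and Wwtr1 in pB2, 77.1% and 76.8% for pB3, 64.4% and 65.9% for Epcam hi, and 78.8% and 77.7% in 687g. The lines did not overlap in this share, although pB3 and 687g lay close together (76.8% to 78.8%). Which gene led in pB2 depended on the length used. With the longest transcript (5282 bases for Yap1, 4697 for Wwtr1) Yap1 led there, as it did in CPM without division by length (mean 122 against 73.7). The share differed among the 4 lines (exact permutation test of the F statistic over 105 assignments, p = 0.00952, adjusted over 7 quantities 0.0167). The unadjusted p is the smallest that 8 libraries in 4 lines can give. The sum of both genes ranged from 28.6 ± 0.631 CPM per kilobase in pB2 to 68.9 ± 14.1 in 687g (exact permutation p = 0.0190, adjusted 0.0267). When 1 library was left out, the call of the share was lost without pB3 replicate 1. That of the sum was lost without any single library of pB2, pB3 or Epcam hi.

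**Figure D2:**
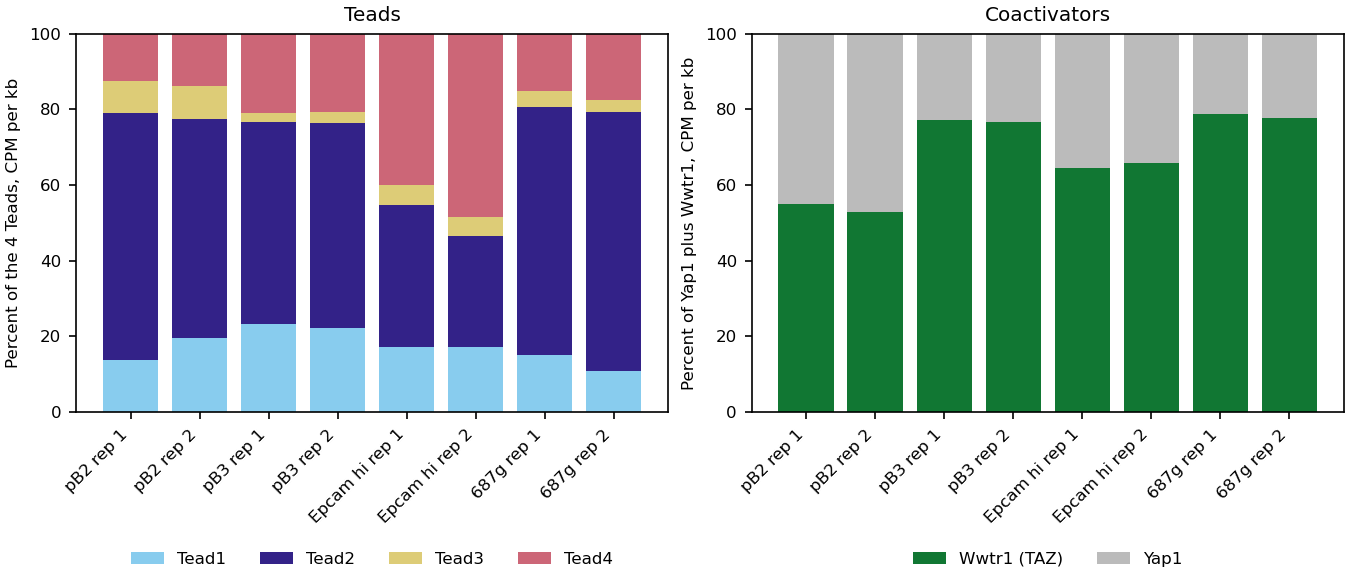
Share of each Tead in the summed Teads (left) and of Wwtr1 in Yap1 plus Wwtr1 (right), in percent of CPM per kilobase (y axis), for each library (x axis). Tead4 takes 39.9% and 48.3% in the Epcam hi libraries against 12.5% to 20.9% elsewhere, and Wwtr1 takes 53.0% to 55.0% in pB2 against 64.4% to 78.8% elsewhere.

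The TEADs share a DNA-binding TEA domain and a domain that binds YAP, TAZ or VGLL proteins. Per kilobase of exon, Tead2 took the largest share in 3 lines, and Tead4 in Epcam hi. Tead1, a TEAD widely expressed in adult tissue, lies on chromosome 7 (112679318 to 112906807, ENSMUSG00000055320, plus strand), where Gm44462 overlaps it on the same strand, so that reads from shared bases are uncertain. It had 37.8 and 62.8 CPM in pB2, 121 and 114 for pB3, 77.8 and 76.8 for Epcam hi, and 86.4 and 54.1 in 687g. Both pB3 libraries exceeded the other 6, while the pB2 and 687g ranges overlapped. Tead1 was higher in pB3 than in pB2 by 1.22 ± 0.25 (edgeR adjusted p = 0.00134), and was not called between 687g and Epcam hi (-0.14 ± 0.25, adjusted p = 0.709). Those differences differed from each other by -1.36 ± 0.36 (adjusted p = 0.00805), which was no longer called when pB2 replicate 1 was left out (0.0556; range over its 15 alternatives 9.02e-05 to 0.0556). Its lower level in 687g than in pB3 (-0.74 ± 0.25, adjusted p = 0.0443) was lost without either pB3 library or 687g replicate 2 (range over its 16 alternatives 0.00442 to 0.290). Tead1 has the longest transcript of the 10 genes, 9964 bases, and in both 687g and pB2 it was higher in the library in which long transcripts were higher (replicate 1 of 687g, replicate 2 of pB2). The part of that imbalance in its values was not tested.

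Tead2, a TEAD known from early embryos, lies on the same chromosome (45215753 to 45233644, ENSMUSG00000030796, plus strand). It had 63.7 and 65.5 CPM in pB2, 97.3 and 97.9 for pB3, 59.3 and 46.6 for Epcam hi, and 131 and 119 in 687g. The 4 lines did not overlap. Tead2 was higher in 687g than in Epcam hi by 1.24 ± 0.18, or 2.37-fold (edgeR adjusted p = 9.19e-05), in all 16 alternatives. It was also higher in pB3 than in pB2 by 0.60 ± 0.18 (adjusted p = 0.0141), but that call was lost with total counts and without any single library of the pair (range over its 16 alternatives 1.01e-04 to 0.115). The difference between the pairs was not called (0.65 ± 0.25, adjusted p = 0.0579), though it was in 6 of 15 alternatives, among them DESeq2 and limma-voom (range 0.0238 to 0.203). Like Wwtr1, Tead2 was thus higher in the pB3 and 687g line of its pair.

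Tead3 lies on chromosome 17 (28331671 to 28350817, ENSMUSG00000002249, minus strand) and was the lowest TEAD per kilobase of exon in each line. In pB2 it was above Tead4 in CPM (mean 12.8 against 10.5), and also with the longest transcript as length. It had 11.6 and 14.0 CPM in pB2, 6.32 and 7.64 for pB3, 12.1 and 11.2 for Epcam hi, and 12.2 and 8.20 in 687g. Both pB3 libraries were below the other 6. Tead3 was lower in pB3 than in pB2 (log2 fold change -0.87 ± 0.25, edgeR adjusted p = 0.0124) and was not called between 687g and Epcam hi (-0.19 ± 0.25, adjusted p = 0.599). The first call ended without pB2 replicate 2 or pB3 replicate 1 (range over its 16 alternatives 3.69e-04 to 0.137). Its lower level in pB3 than in Epcam hi (adjusted p = 0.0449) ended in 9 of 16 alternatives (range 0.0272 to 0.326).

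Tead4, a TEAD with a known role in the trophectoderm, lies on chromosome 6 (128224288 to 128300823, ENSMUSG00000030353, minus strand). It had 9.18 and 11.8 CPM in pB2, 28.6 and 28.0 for pB3, 47.6 and 57.4 for Epcam hi, and 22.8 in each 687g library. Epcam hi was highest and pB2 lowest, with no overlap among lines. It was higher in pB3 than in pB2 by 1.43 ± 0.20, or 2.69-fold (edgeR adjusted p = 4.97e-05), and 2.30-fold lower in 687g than in Epcam hi (-1.20 ± 0.19, adjusted p = 2.27e-04). The pairs thus moved in opposite directions, and the difference between them was -2.63 ± 0.28 (adjusted p = 4.67e-06). Epcam hi exceeded pB2 by 4.99-fold (2.32 ± 0.20, adjusted p = 4.57e-07). Its excess over pB3, 1.85-fold (adjusted p = 0.00285), ended without pB3 replicate 2 alone (range over its 16 alternatives 4.21e-04 to 0.0557). The levels of pB3 and 687g were not told apart (adjusted p = 0.278). The summed epithelial markers, most of it from Krt18 and Krt7 outside pB2, had the same order of lines as the mean of Tead4, with 8418 to 9312 CPM for Epcam hi, 3562 to 3810 for pB3, 2293 to 2680 for 687g and 1483 to 1600 for pB2. Epcam, Cdh1 and Cldn7 did not have that order, with pB2 above pB3 and 687g lowest. The part of these markers in the Tead4 differences was not tested.

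By length, the 4 Teads summed to 22.0 ± 2.33 CPM per kilobase in pB2, 38.0 ± 0.268 for pB3, 33.1 ± 0.105 for Epcam hi and 39.2 ± 3.82 in 687g (exact permutation p = 0.0286, adjusted 0.0333). Tead2 made up 61.6% ± 5.34 of the sum in pB2, 53.7% ± 0.610 for pB3, 33.4% ± 5.57 for Epcam hi and 66.9% ± 2.10 in 687g. Tead4 made up 13.2% ± 0.917, 20.7% ± 0.160, 44.1% ± 5.96 and 16.2% ± 1.62 in the same order. By exon length, Epcam hi was therefore the line in which Tead4 exceeded Tead2, in both of its libraries. With the longest transcript as length, or without division by length (59.3 against 47.6 CPM), Tead2 exceeded Tead4 in Epcam hi replicate 1. Tead3 took 8.63% ± 0.257 in pB2 and 2.74% ± 0.387 in pB3, the highest and lowest line means. The shares of Tead2, Tead3 and Tead4 differed among lines (exact permutation p = 0.00952 each, adjusted 0.0167), and that of Tead1 was not called (p = 0.0952, adjusted 0.0952). With 1 library left out, the calls of the 3 shares were lost without pB3 replicate 1, and that of Tead2 also without pB3 replicate 2. That of the summed Teads was lost without any single library of pB3 or Epcam hi.

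The 4 target genes did not follow one pattern. To show what lies at their starts, the RefSeq promoter windows (GRCm38.p6, 250 bases before to 50 after the annotated start, written 5′ to 3′ on the strand of the gene) of 3 targets and of Wwtr1 are printed with each match to the TEAD core, GGAATG or CATTCC on the other strand, in capitals. The windows lie at chr19:36119795-36120094 (minus strand) for Ankrd1, chr3:145649936-145650235 (minus) for Ccn1, chr9:102717554-102717853 (plus) for Amotl2 and chr3:57575861-57576160 (minus) for the first start of Wwtr1.
Ankrd1: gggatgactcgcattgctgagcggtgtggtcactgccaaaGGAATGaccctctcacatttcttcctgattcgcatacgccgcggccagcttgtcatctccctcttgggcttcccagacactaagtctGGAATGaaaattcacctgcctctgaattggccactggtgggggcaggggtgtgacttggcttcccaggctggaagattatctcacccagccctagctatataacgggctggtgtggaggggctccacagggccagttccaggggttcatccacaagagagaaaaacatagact
Ccn1: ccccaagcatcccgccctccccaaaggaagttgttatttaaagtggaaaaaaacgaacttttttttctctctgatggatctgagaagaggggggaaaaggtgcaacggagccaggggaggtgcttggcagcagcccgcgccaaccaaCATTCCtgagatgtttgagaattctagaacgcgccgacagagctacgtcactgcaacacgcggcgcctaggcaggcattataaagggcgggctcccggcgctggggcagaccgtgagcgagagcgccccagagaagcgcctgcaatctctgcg
Amotl2: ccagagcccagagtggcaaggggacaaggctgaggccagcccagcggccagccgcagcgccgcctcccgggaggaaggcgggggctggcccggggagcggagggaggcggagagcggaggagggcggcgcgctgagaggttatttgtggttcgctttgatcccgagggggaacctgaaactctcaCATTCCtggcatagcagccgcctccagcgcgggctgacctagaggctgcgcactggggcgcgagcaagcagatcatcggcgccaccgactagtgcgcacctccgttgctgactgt
Wwtr1: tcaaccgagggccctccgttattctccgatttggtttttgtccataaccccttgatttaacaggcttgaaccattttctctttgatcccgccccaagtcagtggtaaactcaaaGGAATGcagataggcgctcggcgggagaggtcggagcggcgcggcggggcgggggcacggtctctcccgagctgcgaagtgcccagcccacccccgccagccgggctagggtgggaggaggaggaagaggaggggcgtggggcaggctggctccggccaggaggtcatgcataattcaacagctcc

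Ankrd1 holds 2 matches, beginning 210 and 123 bases before the start, and Ccn1, Amotl2 and this start of Wwtr1 hold 1 each, beginning 103, 65 and 136 bases before it. Among the 7 members with a window, 6 hold at least 1 match (8 of 10 windows, some of which overlap), against 16.6% of 27025 genes and 14.7% of 32851 windows. Yap1 and Tead3 also hold it and Tead2 does not. Of 12 other YAP and TAZ target genes with a window, 4 hold it. The AP-1 site TGANTCA, which reads the same on both strands, was in none of the 10 windows (7.81% of all windows), and the ZEB and Snail E-box CACCTG or CAGGTG was in 1, that of Ankrd1 (20.2% of all windows). The E-box and TEAD core matches do not overlap there. A match describes letters and is not a bound site, and YAP and TAZ are known to act largely from enhancers outside such windows. Ccn2, Tead1 and Tead4 had no entry.

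Ccn1 (formerly Cyr61) encodes a secreted matricellular protein that binds integrins, and lies on chromosome 3 (145646976 to 145649981, ENSMUSG00000028195, minus strand). It had 34.1 and 44.3 CPM in pB2, 158 and 151 for pB3, 385 and 413 for Epcam hi, and 184 and 132 in 687g. Epcam hi was highest and pB2 lowest, with pB3 inside the 687g range. It was higher in pB3 than in pB2 by 1.98 ± 0.21, or 3.94-fold (edgeR adjusted p = 3.01e-06), and 2.52-fold lower in 687g than in Epcam hi (-1.33 ± 0.20, adjusted p = 1.29e-04). The difference between the pairs was -3.31 ± 0.29 (adjusted p = 6.62e-07), and all 3 calls held in every alternative. Epcam hi exceeded pB2 by 10.2-fold (3.34 ± 0.22, adjusted p = 2.19e-08). By length Ccn1 was the highest of the 10 genes over all libraries, at 197 ± 9.89 CPM per kilobase in Epcam hi.

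Ccn2 (formerly Ctgf), of the same CCN family and a standard readout of YAP and TAZ, lies on chromosome 10 (24595442 to 24598683, ENSMUSG00000019997, plus strand). It had 97.7 and 112 CPM in pB2, 98.0 and 96.3 for pB3, 186 and 110 for Epcam hi, and 178 and 150 in 687g. The lines lay close together, and the Epcam hi libraries spanned from the pB2 range to above 687g. Ccn2 was not called in either pair (pB3 against pB2 -0.11 ± 0.22, adjusted p = 0.736; 687g against Epcam hi 0.15 ± 0.22, adjusted p = 0.651). It was called higher in 687g than in pB3 (0.75 ± 0.23, adjusted p = 0.0240) and than in pB2 (0.65 ± 0.22, adjusted p = 0.0266). Both of these calls were lost without 687g replicate 1 or without either library of the other line, and the second also with total counts (ranges over 16 alternatives 0.00242 to 0.138 and 0.00389 to 0.180).

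Ankrd1, which encodes an ankyrin repeat protein of muscle sarcomeres and nuclei, lies on chromosome 19 (36111961 to 36120099, ENSMUSG00000024803, minus strand). It had 0.815 and 1.06 CPM in pB2, from 11 and 20 counts, against 137 and 142 for pB3, 88.4 and 35.9 for Epcam hi, and 98.6 and 70.6 in 687g. The pB2 libraries stood apart from the other 6, whereas the Epcam hi and 687g ranges overlapped. It was higher than in pB2 by 145-fold in pB3 (7.18 ± 0.46, edgeR adjusted p = 2.04e-08), 64.5-fold in Epcam hi (6.01 ± 0.45, adjusted p = 8.37e-08) and 88.1-fold in 687g (6.46 ± 0.45, adjusted p = 3.77e-08). These 3 comparisons share the pB2 libraries. Without Epcam hi replicate 1 the log2 fold change of Epcam hi against pB2 was 5.23. Between 687g and Epcam hi Ankrd1 was not called (0.45 ± 0.31, adjusted p = 0.291), but it was without Epcam hi replicate 1 (1.24, adjusted p = 8.74e-04; range over its 16 alternatives 8.74e-04 to 0.973). Its excess in pB3 over Epcam hi, 1.17 ± 0.32 (adjusted p = 0.0122), was 1.96 without that library and was not called with only those lines in the fit (range over its 16 alternatives 2.45e-07 to 0.0712).

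Amotl2, on chromosome 9 (102716672 to 102733418, ENSMUSG00000032531, plus strand), encodes an angiomotin-like protein that binds YAP and holds it back, and is itself a target. It had 31.4 and 44.2 CPM in pB2, 52.4 and 50.5 for pB3, 77.7 and 62.0 for Epcam hi, and 73.9 and 39.8 in 687g. The 687g libraries spanned the range of most of the others. It was called in 1 of 6 comparisons, higher in Epcam hi than in pB2 by 0.88 ± 0.27 (edgeR adjusted p = 0.0133). That call ended without pB2 replicate 1 or Epcam hi replicate 1 (range over its 16 alternatives 5.81e-04 to 0.159).

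**Figure D3:**
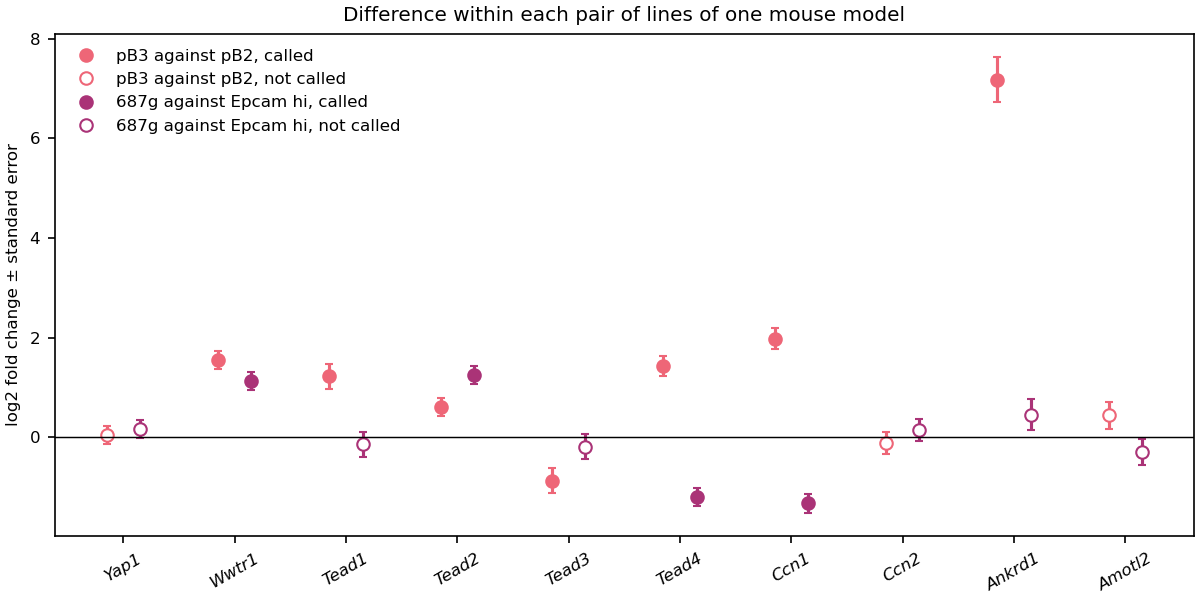
Log2 fold change with its standard error (y axis) of each of the 10 genes (x axis) for pB3 against pB2 and 687g against Epcam hi, filled where the adjusted p was under 0.05. Wwtr1 and Tead2 are above zero in both pairs, and Tead4 and Ccn1 are above zero in the first pair and below it in the second.

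Across the 10 genes, 8 differed among the 4 lines (edgeR test on 3 coefficients), against 66.5% of the 15890 genes tested. Yap1 and Amotl2 were the others (adjusted p = 0.728 and 0.0549). The calls of Tead3 and Ccn2 each ended in 4 of 15 alternatives. In pB3 against pB2, 7 of 10 were called, 6 higher and 1 lower, against 44.8% of all genes (21.6% higher, 23.2% lower), with a median log2 fold change of 0.91 for the 10 genes and 0.02 for all. In 687g against Epcam hi, 4 of 10 were called, 2 higher and 2 lower, against 36.4% of all genes, which is near that share. For Epcam hi against pB2 it was 5 of 10 against 51.4% of all genes, with all 5 higher (25.8% of all genes), and 3 without pB2 replicate 1. For 687g against pB2 it was 6 of 10 against 52.3%, with all 6 higher (25.6% of all genes). With total counts as the scaling, the share of called genes that were higher went from 48.2% to 37.6% in pB3 against pB2 and from 48.9% to 37.4% in 687g against pB2. Between 687g and pB3, 2 of 10 were called against 25.8%, and 0 without either pB3 library. Between pB3 and Epcam hi it was 6 of 10 against 29.4%, and the difference between the pairs was called for 4 of 10 against 37.7%. A share of 10 genes is coarse, and comparisons that share a line are not independent.

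Each gene was also set beside its chromosomal neighbours, the tested genes whose midpoints lay within 5 Mb. Neighbour medians were far smaller than the large member differences. In pB3 against pB2 the 49 neighbours of Ankrd1 had a median of 0.37 and the 50 neighbours of Wwtr1 0.07. For Tead4, the 86 neighbours had a median of 0.41 in Epcam hi against pB2, with 35 called higher and 15 lower. Of all genes, 25.8% were called higher there and 25.6% lower. In 687g against Epcam hi their median was -0.38, with 10 higher and 27 lower, against 18.4% and 18.0% of all genes. The neighbours of Tead4 thus leaned the way it moved in these comparisons, with smaller medians. In pB3 against pB2, where Tead4 was higher by 1.43, their median was 0.05. There 20 were called higher and 14 lower, against 21.6% and 23.2% of all genes. The neighbours of Ankrd1 and Tead1 leaned higher there, with 18 of 49 and 19 of 62 called higher and 7 lower each. The 37 neighbours of Ccn1 had a median of -0.16 in Epcam hi against pB2.

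Genes with the most alike pattern were those with the smallest root mean square difference in centred log2 CPM over the 8 libraries, among 9197 tested genes with a mean of at least 10 CPM. For Ccn1 this was Cdkn1a, which encodes the cyclin-dependent kinase inhibitor p21 (0.15 on the log2 scale), at 15.6 CPM in pB2, 54.2 for pB3, 153 for Epcam hi and 57.6 in 687g. For Ankrd1 it was Hexa, a lysosomal hexosaminidase subunit (0.30), at 0.535, 85.8, 34.3 and 34.7 CPM. For Wwtr1 it was Fkbp1a (0.13), for Tead1 Abhd2 (0.13), for Tead2 Rcbtb1 (0.08) and for Tead3 the collagen receptor gene Ddr1 (0.12). For Tead4 it was Nt5c2 (0.17), for Ccn2 Rbms2 (0.08), for Amotl2 Mroh1 (0.12) and for Yap1 Hps5 (0.05). Among the members themselves Yap1 and Ccn2 were closest (0.32). Their ranges over the libraries, 0.40 and 0.95 on the log2 scale, were the smallest of the members. Wwtr1 and Tead2 were 0.42 apart. Ankrd1 and Tead3 were farthest apart (3.05). With libraries grouped in 4 lines, such distances describe these samples and carry no test.

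The kinase arm of the Hippo pathway was read from 16 genes, all tested. In pB3 against pB2, 9 were called higher and 1 lower (median 0.58, against 0.02 for all genes). Of all genes 44.8% were called there, 21.6% higher and 23.2% lower. With total counts, 7 of the 16 were higher and 2 lower. Taok3, a kinase that can activate MST, was at 1.63 and 2.65 CPM in pB2 and 11.7 and 9.78 in pB3 (2.30 ± 0.36, edgeR adjusted p = 1.36e-04). Rassf1, a scaffold that binds MST kinases, was at 37.0 and 29.7 against 96.4 and 97.1 CPM (1.54 ± 0.21, adjusted p = 3.18e-05). In 687g against Epcam hi, 2 were higher and 3 lower (median 0.17, against -0.03 for all genes), a count near the 36.4% of all genes called. Wwc1 (KIBRA), an upstream activator of the LATS kinases, was lower in 687g, at 30.3 and 18.5 against 51.9 and 64.9 CPM (-1.26 ± 0.24, adjusted p = 8.20e-04). It was also lower in pB3 than in pB2 (-0.99 ± 0.23, adjusted p = 0.00312). Lats2, which phosphorylates YAP and TAZ and is itself a target, was higher in both pairs, at 7.41 and 7.85 CPM in pB2, 16.1 and 13.4 for pB3, 8.16 and 7.99 for Epcam hi, and 16.3 and 14.5 in 687g. Its log2 fold changes were 0.95 ± 0.22 and 0.93 ± 0.22 (adjusted p = 0.00279 and 0.00401).

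Of 11 genes whose products bind YAP, TAZ, TEADs or LATS, 9 were tested. In pB3 against pB2, 1 was higher and 1 lower, against 44.8% of all genes called (median 0.40, against 0.02 for all genes), and 1 and 2 with total counts. Ajuba, a LIM protein that restrains LATS, was at 25.0 and 28.5 CPM in pB2 and 63.6 and 70.5 in pB3 (1.32 ± 0.19, edgeR adjusted p = 5.85e-05), and Trp53bp2, which encodes the adaptor ASPP2, was lower in pB3 (-1.15 ± 0.20, adjusted p = 2.84e-04). In 687g against Epcam hi, 2 were higher and 2 lower, near the 36.4% of all genes called (median -0.04, against -0.03). Vgll3, a cofactor that binds TEADs in place of YAP and TAZ, was at 21.5 and 15.3 CPM in Epcam hi and 0.112 and 0.134 in 687g (-7.15 ± 0.51, adjusted p = 9.40e-08). Wtip, a LIM protein of the Ajuba family, was at 0.352 and 0.493 CPM in Epcam hi and 18.0 and 19.5 in 687g (5.42 ± 0.31, adjusted p = 1.05e-08). The Vgll3 values in pB2 and pB3 lay between, at 1.70 to 4.34 CPM. The genes not tested were Vgll1 and Vgll2.

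Of 9 polarity and atypical cadherin genes that feed into the pathway, 4 were higher and 2 lower in pB3 against pB2, against 44.8% of all genes called (median 0.24, against 0.02 for all genes). With total counts 2 were higher and 2 lower, near that share. In 687g against Epcam hi, 2 were higher and 3 lower, against 36.4% of all genes called (median -0.24, against -0.03). Fat4, an atypical cadherin, was higher in both (1.69 ± 0.41 and 2.04 ± 0.40, edgeR adjusted p = 0.00390 and 0.00119). Fat1, another, was higher in pB3 (1.50 ± 0.32, adjusted p = 0.00158) and lower in 687g (-1.43 ± 0.32, adjusted p = 0.00286). Its levels were 81.0 and 124 CPM in pB2, 296 and 286 for pB3, 262 and 334 for Epcam hi, and 155 and 65.9 in 687g. Like Tead1, it was higher in replicate 2 of pB2 and replicate 1 of 687g. The part of the long-transcript imbalance in its values was not tested. Dlg5, a scaffold of cell junctions, was at 26.1 and 29.0 CPM in Epcam hi and 322 and 168 in 687g (3.15 ± 0.28, adjusted p = 8.09e-07). Crb3, an apical polarity protein of epithelia, was at 48.3 and 62.5 CPM in Epcam hi and had 0 counts in 687g. It was at least 666-fold lower there against a floor of 3 counts over both libraries (edgeR adjusted p = 2.56e-09).

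Beyond the members, the 18 other genes of a published YAP and TAZ target signature, to which the 4 member targets belong, were all tested. Lats2 is also among the kinase genes and Ptpn14 among the binding regulators. In pB3 against pB2, 10 were called higher, 5 lower and 3 not (median 1.84, or 1.85 if genes with almost no counts take their bound, against 0.02 for all genes, of which 44.8% were called). In 687g against Epcam hi, 9 were higher, 2 lower and 7 not called (median 0.81, against -0.03 for all genes, of which 36.4% were called). Axl, a receptor tyrosine kinase, was at 2.67 and 1.27 CPM in pB2 and at 323 to 1129 in the other 6 libraries, and was higher in pB3 by 9.20 ± 0.35 (edgeR adjusted p = 2.77e-10). Igfbp3, which binds insulin-like growth factors, had 1 count in pB2 and 40.3 and 40.4 CPM in pB3, a ratio of 1136 with a 95% counting interval of 204 to 44921. Foxf2, a forkhead factor, was at 0.492 and 0.602 CPM in Epcam hi and 21.5 and 14.1 in 687g (4.99 ± 0.38, adjusted p = 4.03e-07), with 0 counts in pB2. Ccdc80, a matrix protein, had 1 count in Epcam hi and 72 in 687g, a ratio of 65.8 (counting interval 11.4 to 2635), and went the other way between pB2 and pB3, with 42 counts against 1. F3 (tissue factor), Tgfb2, Rbms3 and Fjx1 were, with Ccdc80, the 5 called lower in pB3, and were named after their values were seen. For 13 of the 18 the difference between the pairs was called, 3 with a positive and 10 with a negative sign (median -1.57), against 37.7% of all genes (median -0.07).

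**Figure D4:**
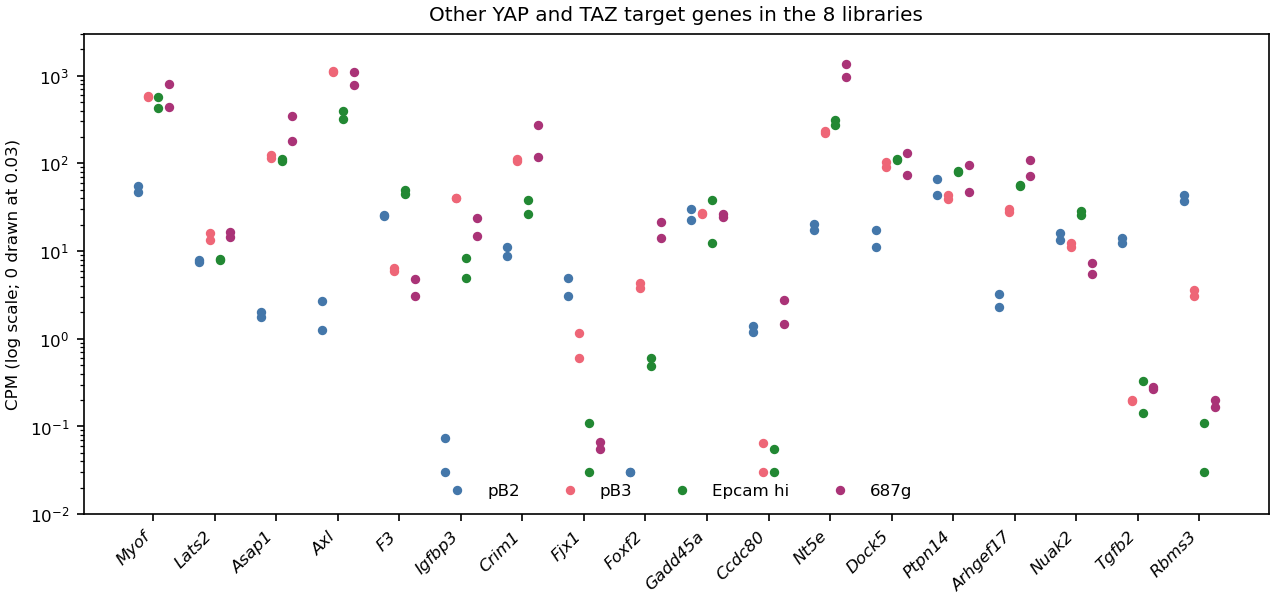
Level in CPM (y axis, log scale, zeros drawn at 0.03) of 18 other YAP and TAZ target genes (x axis), with a dot per library coloured by line. Axl, Asap1 and Igfbp3 are lowest in pB2, as is Ankrd1, whereas Tgfb2 and Rbms3 are highest there.

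Of the 4 other CCN family genes, 2 were tested. Ccn4 was at 6.00 and 7.64 CPM in pB2, 3.83 and 3.76 for pB3, 0.0703 and 0.164 for Epcam hi, and 1.62 and 0.672 in 687g. Epcam hi, the line with the highest Ccn1, thus had the lowest Ccn4. The difference between 687g and Epcam hi was 3.17 ± 0.66 (edgeR adjusted p = 0.00183), with 4 counts over both Epcam hi libraries.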

How the data were processed

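RNA-seq libraries, 2 for each of 4 lines, entered as whole-number counts per Ensembl gene. Per the submitters' processing notes and design text, the authors made these counts with featureCounts from alignments by STAR 2.6.1a to GRCm38/mm10, reading the reverse strand, with an Ensembl annotation. From the deposited counts, CPM was computed on library totals over the genes that passed the filter, scaled by TMM factors. Genes were named through GENCODE M21 (53274 of 53379 IDs had a symbol, 105 did not).

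Differences were tested with edgeR 4.0.16 (R 4.3.3): filterByExpr by line (minimum count 10), TMM factors, 1 coefficient per line over all 8 libraries, the quasi-likelihood F test, and Benjamini-Hochberg adjustment over 15890 genes, with calls at 0.05. Every adjusted p in the text that is not from a permutation test comes from this edgeR fit or, where stated, from an alternative: RLE factors, total counts, DESeq2 1.42.0, limma-voom (limma 3.58.1), no filter, at least 1 CPM in 2 libraries, a replicate block, only the lines compared, and each of 8 libraries left out. A line left with 1 library is assumed to vary like the others. Counting intervals cover counting error only. The edgeR fit was checked on simulated counts with known changes in few genes of 1 line and the same spread for all genes. Far more genes differed between the lines here, so the simulation does not check the scaling or the error rate in these data.

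The members and gene lists were chosen with earlier results of these data known. Named genes are the 10 members, the 2 called genes of each of 5 pathway lists with the largest change in each pair from the same mouse model, and the most alike gene of each member. Genes of a list that fall outside this rule were named after their values were seen.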

Additional observations from a re-analysis of the deposited data

Results flagged for a closer look

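For 4 of the 10 genes, the difference within the reporter pair (687g against Epcam hi) differed from the difference within the MMTV-PyMT pair (pB3 against pB2), by a test of the contrast between the pairs in the edgeR fit. For Tead1 the log2 fold changes were -0.14 and 1.22, and the contrast was -1.36 ± 0.36 (adjusted p = 0.00805), not called without pB2 replicate 1 (adjusted p = 0.0556, range over 15 alternatives 9.02e-05 to 0.0556). Tead4 had -1.20 and 1.43, a contrast of -2.63 ± 0.28 (adjusted p = 4.67e-06). For Ccn1 they were -1.33 and 1.98, and the contrast was -3.31 ± 0.29 (adjusted p = 6.62e-07). Ankrd1 had 0.45 and 7.18, a contrast of -6.73 ± 0.55 (adjusted p = 3.38e-07), and of -5.95 without Epcam hi replicate 1. Tead4 and Ccn1 were called in both pairs with opposite signs, and Tead1 and Ankrd1 in the MMTV-PyMT pair. The contrast was called for 37.7% of all genes tested.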

How the results depend on the processing

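Of 70 member differences tested, 34 were called, and 23 of these held under every alternative that could be fitted. The other 11 lost their call under at least 1, none reversed, and each is given with its range beside its result. Of the 36 not called, 15 were called under some alternative and 12 changed sign under some alternative.

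The changes of sign were all in differences that were not called. Yap1 in Epcam hi against pB2 went to -0.03 with RLE factors, DESeq2 and no filter. With total counts it was -0.11, and Yap1 was -0.15 in pB3 against pB2, -0.04 in pB3 against Epcam hi and -0.06 in 687g against pB2, while Ccn1 in 687g against pB3 was -0.01. With 1 library left out at a time, Yap1 ranged from -0.04 to 0.12 in pB3 against pB2, -0.07 to 0.02 in Epcam hi against pB2, -0.03 to 0.12 in pB3 against Epcam hi, -0.03 to 0.31 in 687g against pB3, and -0.02 to 0.35 in the difference between the pairs. In 687g against Epcam hi, Tead1 ranged from -0.49 to 0.20, Tead3 from -0.48 to 0.10, Ccn2 from -0.10 to 0.57 and Amotl2 from -0.78 to 0.12. In 687g against pB3, Ccn1 ranged from -0.22 to 0.25 and Amotl2 from -0.36 to 0.53.

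Leaving out 1 library moved the gap between the highest and lowest line mean to 23.3 to 25.2 percentage points for the Wwtr1 share, 7.63 to 11.9 for Tead1, 29.5 to 37.4 for Tead2, 5.62 to 6.17 for Tead3 and 26.7 to 35.2 for Tead4. It moved the gap to 14.5 to 19.9 CPM per kilobase for the summed Teads and 30.4 to 50.3 for Yap1 plus Wwtr1. Members called ranged from 3 to 6 in Epcam hi against pB2 and from 0 to 3 in 687g against pB3. Genes called ranged from 2402 to 4991 in 687g against pB3 (4093 with all libraries) and from 2854 to 6103 in pB3 against Epcam hi (4666). The cause was not tested. Total counts moved the median of all genes from 0.02 to -0.17 in pB3 against pB2 and from 0.03 to -0.20 in 687g against pB2.

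The labels do not state whether libraries of the same replicate number were handled together. Correlations of same-numbered deviations between lines ran from -0.0982 to 0.173, the last between pB2 and Epcam hi. With 1 deviation per gene in each line, these values cannot show whether libraries were paired. With a replicate block, 6995 genes were called in pB3 against pB2 and 5655 in 687g against Epcam hi. The block ended no member call and added Tead1 in Epcam hi against pB2 (adjusted p = 0.0450, range over alternatives 0.0183 to 0.474), Ankrd1 in 687g against pB3 (0.0299, range 0.00625 to 0.415) and Amotl2 among the 4 lines (0.0352, range 0.00435 to 0.318).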
